A study of Mus musculus with 35 samples.

Results

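Glycolysis splits glucose into pyruvate and lactate, and its enzymes and glucose carriers are classic targets of the hypoxia inducible factors (HIFs), transcription factors whose alpha subunit is destroyed in oxygen-rich cells after prolyl hydroxylases mark it. Glia rely on this pathway to make lactate, part of which they pass on to neurons. Inflammatory signals can also raise HIF-1alpha, and immune cells and glia that respond to them are known to shift towards glycolysis. The 38 genes described here were taken by symbol from the 22180 genes of the table, and all 38 were found. They comprise 17 glycolytic enzymes, 4 glucose and lactate transporters, 3 regulators of flux through the pathway, 3 genes of the HIF axis itself (Hif1a and the hydroxylases Egln1 and Egln3) and 11 further HIF targets.

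The study asked how the surface that enteric glia grow on changes their state and their reaction to the cytokine interleukin-1β (IL-1β). It holds 35 libraries in 7 groups of 5 biological replicates. Enteric glia, the glial cells of the gut wall, were grown from neurospheres of the small intestinal muscularis externa of adult wildtype mice on a BL6 background. Per the labels, neurospheres proliferated for 7 days and differentiated for 3 days on Matrigel, laminin or poly-L-ornithine (PLO) before treatment, whereas the methods of the study give a longer differentiation. On each coating, 5 cultures were then given IL-1β at 10 ng/ml for 24 h, and 5 naive cultures were given serum-free medium alone. The labels do not say whether cultures of different groups came from the same animals. The main fits treated all 30 culture libraries as independent, so standard errors and p values do not allow for shared animals. Below, n = 15 counts libraries over the 3 coatings, not animals. The seventh group, called RiboTag, came from naive, tamoxifen-treated adult Sox10iCreERT2Rpl22HA/+ mice, Cre+, in which cells that express Sox10 carry an HA tag on a ribosomal protein. Here RNA bound to tagged ribosomes was pulled down from muscularis externa, so this group differs from the cultures at once in tissue context, genotype, kind of RNA and extraction kit, and these cannot be told apart.

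Values are 3' tag counts normalized by the authors, which do not grow with transcript length. Levels of different genes compare only roughly, because a gene can share reads with a copy, as Eno1 does below. Totals ran between 7522181 and 9185843 normalized counts per library. The summed level of 11 enteric glia markers was 37840 to 55585 in RiboTag libraries, 10438 to 23667 in IL-1β cultures and 13108 to 31303 in naive cultures. Smooth muscle markers, 10 genes, summed to 361297 to 600535 in RiboTag libraries, 2941 to 19317 in IL-1β cultures and 9053 to 46587 in naive cultures. The cultures held non-glial cells as well, and in bulk RNA fewer cells of a type and less RNA per cell cannot be told apart.

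Cultures given IL-1β carried more RNA for HIF-1alpha and for 7 of the 17 glycolytic enzymes, while 1 enzyme gene fell. Of the 38 genes, 14 rose and 4 fell at an adjusted p under 0.05 (limma on log2 values, mean over the 3 coatings, Benjamini-Hochberg over all genes tested), and 22 had an unadjusted p under 0.05, beside 17.7% of all genes. Among all 20687 genes tested, 7.44% were called, 3.42% as higher and 4.02% as lower. The median log2 fold change was 0.22 over the 38 genes, of which 29 lay above 0, beside −0.04 over all genes tested. Scaled to Actb and Rpl32 instead, 19 of the 38 rose and 2 fell, with 10.6% of all genes called and the median of all genes at 0.12. With a mean of at least 50 required, 14 of 34 rose and 4 fell, beside 15.3% of 10202 genes called. As a share of all normalized counts, the 38 genes together took 0.447% ± 0.0346 in IL-1β cultures and 0.372% ± 0.0194 in naive cultures (SD, n = 15 each), and the ranges, 0.409% to 0.521% and 0.333% to 0.402%, did not overlap.

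**Figure D1:**
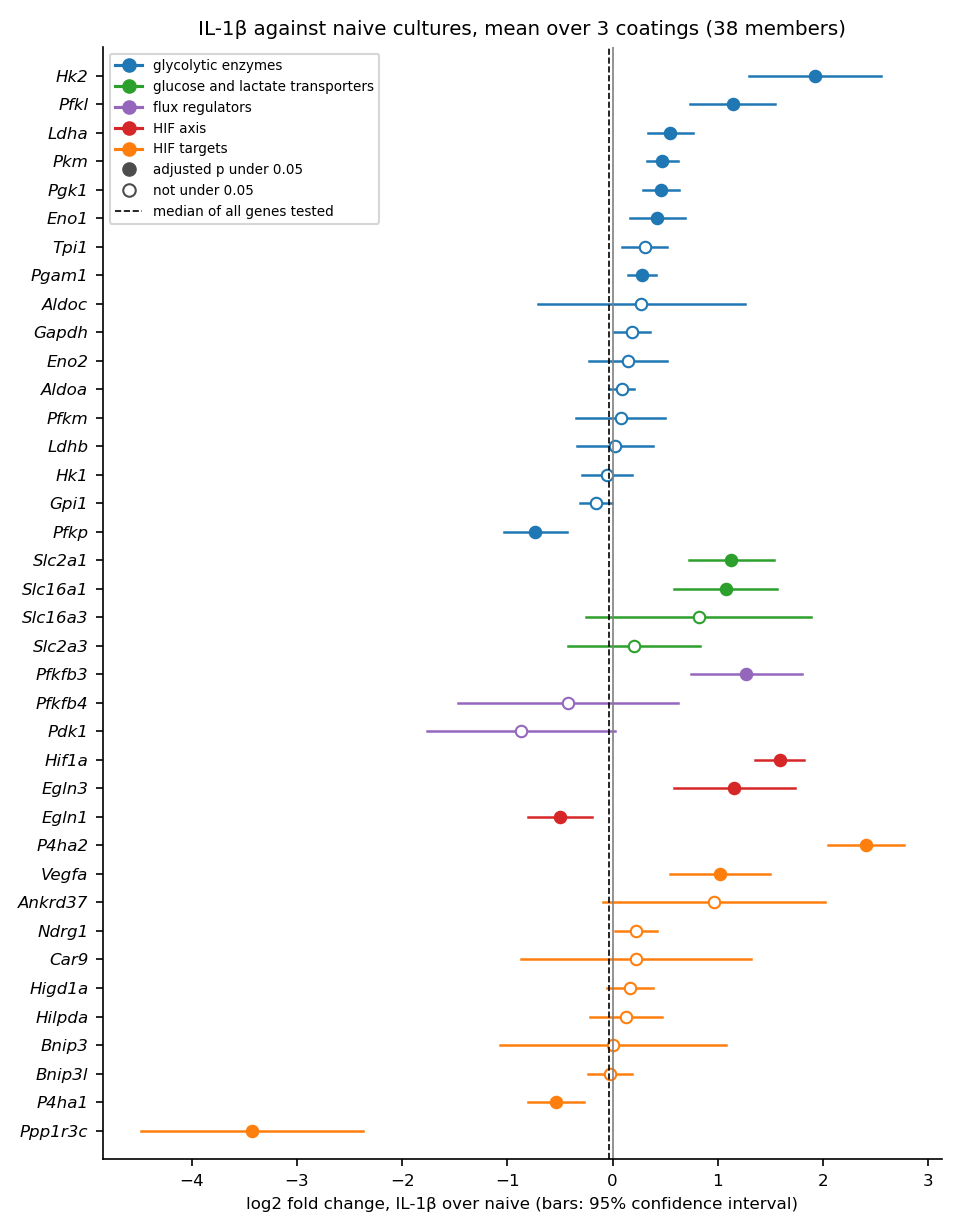
Log2 fold change of each of the 38 genes, IL-1β over naive cultures, averaged over the 3 coatings, with 95% confidence intervals (30 libraries); colours give the functional group, filled points have an adjusted p under 0.05, and the dashed line is the median of all genes tested. P4ha2, Hk2 and Hif1a lie farthest to the right at 2.40, 1.92 and 1.59, and Ppp1r3c farthest to the left at −3.43.

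Hif1a, which encodes the oxygen-regulated HIF subunit, had 955, 1206, 1416, 897 and 1230 normalized counts in IL-1β cultures on Matrigel, against 385, 350, 288, 555 and 339 in naive cultures on Matrigel. On laminin it had 1658, 1019, 1248, 1274 and 1155 in IL-1β cultures, against 343, 327, 409, 473 and 388 in naive cultures. On PLO it had 880, 1035, 1065, 1039 and 1495 in IL-1β cultures, against 474, 381, 405, 288 and 416 in naive cultures. Every IL-1β library thus lay above every naive library, whatever the coating. The mean was 1171 ± 224 in IL-1β cultures and 388 ± 72.6 in naive cultures (SD, n = 15 each), a log2 fold change of 1.59 (SE 0.116, limma adjusted p = 2.3e-16).

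The 2 listed hydroxylases of those that mark HIF for destruction moved apart. Egln3 rose, with a lowest, median and highest level of 55.4, 166.3 and 329 in IL-1β cultures, against 17.9, 69.1 and 163 in naive cultures (log2 fold change 1.16, SE 0.285, limma adjusted p = 0.0039). Egln1, the main oxygen sensor of the family, fell by 0.50 on the log2 scale (SE 0.152, limma adjusted p = 0.0278), with a mean of 368 in IL-1β cultures and 538 in naive cultures. This Egln1 call did not pass in 5 of 30 fits that each left out 1 library (Matrigel naive replicate 1 or 2, PLO naive replicate 2, Matrigel IL-1β replicate 5 or PLO IL-1β replicate 1), where the adjusted p reached 0.0654, nor when libraries were scaled to Actb and Rpl32. At that scaling the Egln1 value was −0.28 (limma adjusted p = 0.347), beside a median of all genes of 0.12. The ratio of Egln3 to Egln1 had a median of 0.569 over IL-1β libraries and 0.143 over naive libraries, with 9 of 15 IL-1β libraries above every naive one.

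Collagen prolyl 4-hydroxylases use oxygen, as the Egln enzymes do, but modify procollagen, and their alpha subunits are HIF targets. P4ha2 had the highest fold change of the 38 genes. It had 2145, 1576, 1944, 495 and 1017 normalized counts in IL-1β cultures on Matrigel, against 278, 180, 218, 159 and 175 in naive ones. On laminin it had 2305, 779, 1103, 1701 and 1251 in IL-1β cultures, against 235, 154, 309, 159 and 208 in naive ones. On PLO it had 599, 1399, 1663, 784 and 1025 in IL-1β cultures, against 247, 231, 382, 250 and 319 in naive ones. As for Hif1a, all 15 IL-1β libraries lay above all 15 naive libraries. Of the 38 genes these 2 had groups that did not overlap in this way, both higher after IL-1β, beside 0.372% of all genes tested with IL-1β higher, and 0 of 38 beside 0.0725% with IL-1β lower. The log2 fold change of P4ha2 was 2.40 (SE 0.179, limma adjusted p = 1.46e-13).

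The sister gene P4ha1 fell, with a mean of 563 ± 180 normalized counts in IL-1β cultures and 787 ± 137 in naive cultures (SD, n = 15 each; log2 fold change −0.54, SE 0.133, limma adjusted p = 0.004). This call was lost when libraries were scaled to Actb and Rpl32 (log2 fold change −0.32, limma adjusted p = 0.16). That scaling also moved the median of all genes from −0.04 to 0.12. The ratio of P4ha2 to P4ha1 ran between 1.07 and 5.23 in IL-1β libraries and between 0.157 and 0.703 in naive libraries. P4ha2 thus had more normalized counts than P4ha1 in every IL-1β library and fewer in every naive one.

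**Figure D2:**
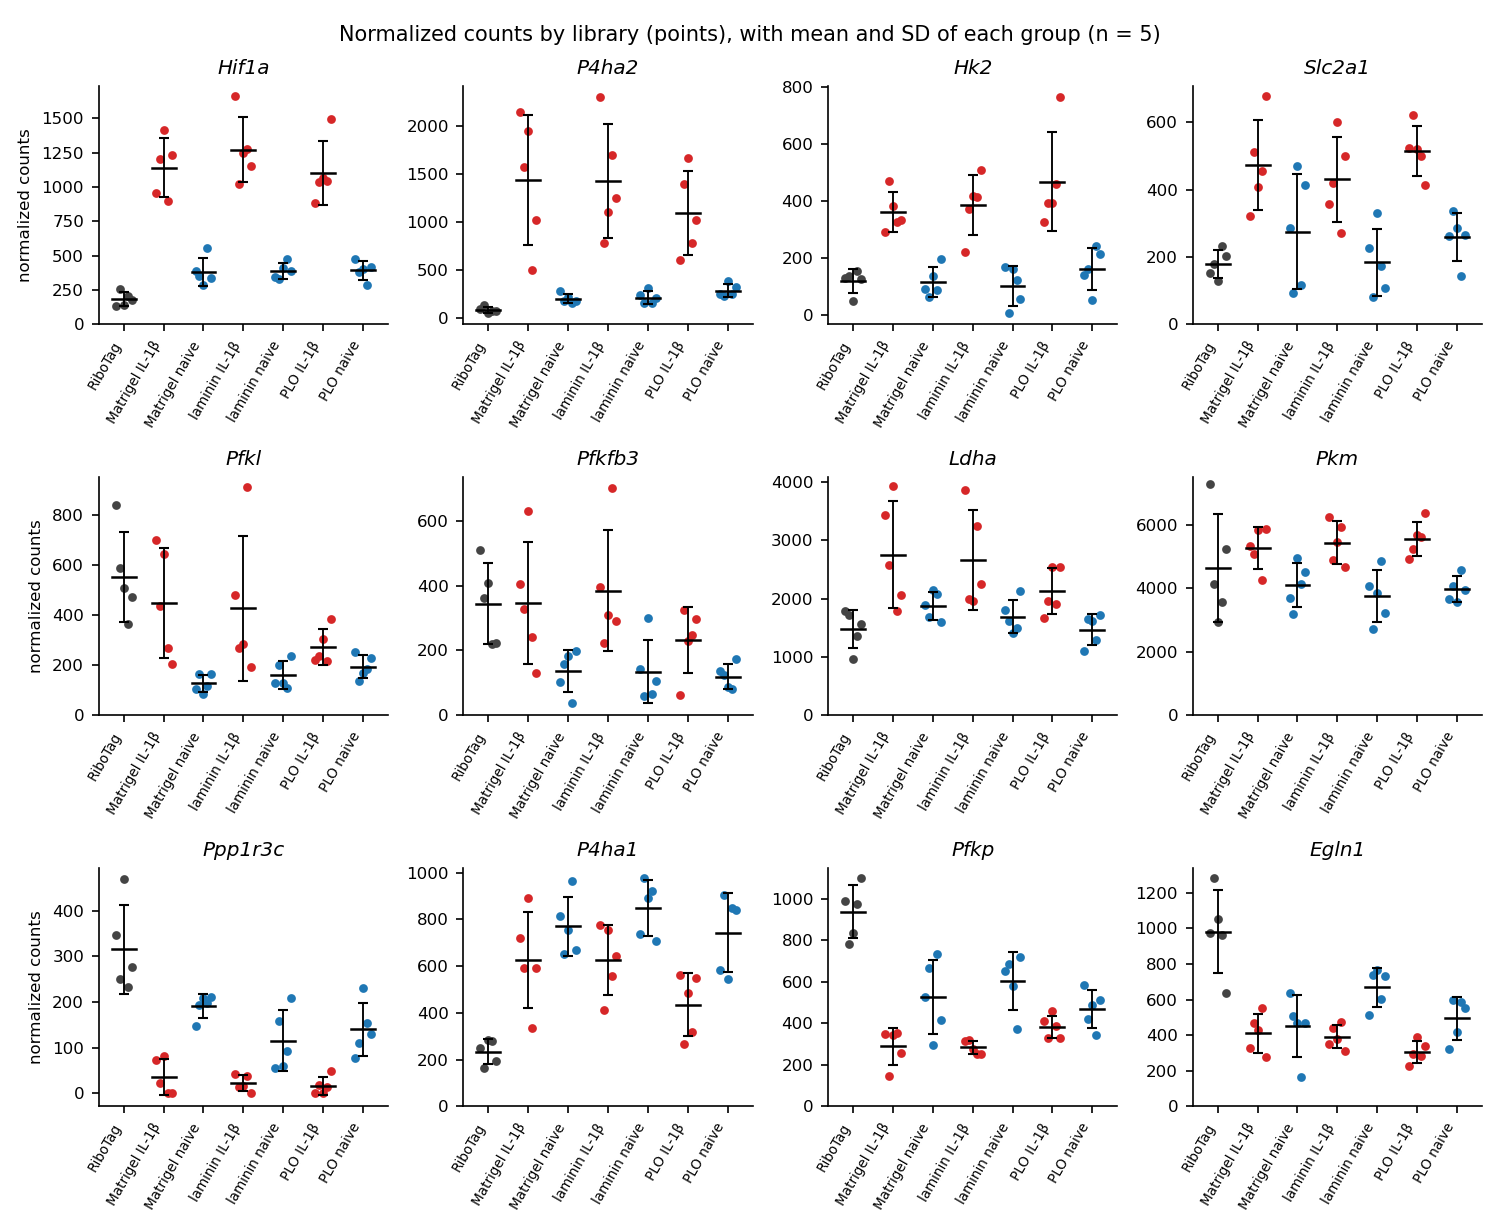
Normalized counts of 12 of the 38 genes in each library (points: grey RiboTag, red IL-1β, blue naive; PLO is poly-L-ornithine), with the mean and SD of each group of 5. For Hif1a and P4ha2 the red points lie above all blue points on every coating, and for Ppp1r3c below the blue points of the same coating.

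At the entry of glucose into the pathway, the inducible members rose. Slc2a1, the glucose transporter GLUT1, had a lowest, median and highest level of 272, 499 and 679 in IL-1β cultures, against 82.1, 261 and 471 in naive cultures (log2 fold change 1.13, SE 0.201, limma adjusted p = 4.8e-05). The other glucose carrier, Slc2a3 (GLUT3, best known from neurons), did not pass the test (log2 fold change 0.21, 95% confidence interval −0.42 to 0.83). Hk2, the inducible hexokinase that traps glucose as glucose 6-phosphate, had 223, 394 and 765 in IL-1β cultures, against 6.25, 138 and 241 in naive cultures. Its groups overlapped only at the edge between coatings, and its log2 fold change was 1.92 (SE 0.308, limma adjusted p = 3.3e-05). Hk1, the widely expressed hexokinase, averaged 591 ± 98.6 in IL-1β cultures and 616 ± 123 in naive cultures (SD, n = 15 each; log2 fold change −0.05, 95% confidence interval −0.29 to 0.18, adjusted p = 0.85). In consequence the ratio of Hk2 to Hk1 was 0.405 to 1.73 in IL-1β libraries and 0.00972 to 0.365 in naive libraries, without overlap.

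Phosphofructokinase commits sugar to glycolysis and has 3 isoforms, each of which behaved differently. Pfkl, the liver-type isoform, rose, with a lowest, median and highest level of 194, 286 and 910 in IL-1β cultures, against 85.9, 163 and 251 in naive cultures (log2 fold change 1.14, SE 0.202, limma adjusted p = 3.3e-05). Pfkp, the platelet-type isoform, fell, with 146, 327 and 458 in IL-1β cultures, against 297, 529 and 736 in naive cultures (log2 fold change −0.73, SE 0.148, limma adjusted p = 2.8e-04). Pfkm, the muscle-type isoform, did not pass the test, with means of 165 in IL-1β cultures and 161 in naive cultures (adjusted p = 0.89). Pfkp had more normalized counts than Pfkl in every naive library, where the Pfkl to Pfkp ratio stayed between 0.16 and 0.536. The ratio in IL-1β libraries was 0.543 to 3.59. Pfkfb3, whose product makes the strongest allosteric activator of phosphofructokinase, also rose, with 61.7, 296 and 702 in IL-1β cultures, against 37.8, 123 and 300.3 in naive cultures (log2 fold change 1.27, SE 0.261, limma adjusted p = 4.7e-04). Its relative Pfkfb4 did not pass (log2 fold change −0.42, 95% confidence interval −1.47 to 0.62).

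The enzymes of the lower pathway changed less in fold but from high levels. Pkm, pyruvate kinase, had a lowest, median and highest level of 4269, 5479 and 6371 in IL-1β cultures, against 2730, 3966 and 4974 in naive cultures (log2 fold change 0.47, SE 0.073, limma adjusted p = 2.4e-06). Pgk1, phosphoglycerate kinase, had 1858, 2194 and 2923 in IL-1β cultures, against 1177, 1636 and 2119 in naive cultures (log2 fold change 0.46, SE 0.085, limma adjusted p = 6.6e-05). Ldha, the lactate dehydrogenase subunit that favours lactate formation, had 1672, 2241 and 3935 in IL-1β cultures, against 1097, 1643 and 2152 in naive cultures (log2 fold change 0.55, SE 0.107, limma adjusted p = 2.2e-04). For all 3 enzymes the 2 groups overlapped in part. Pgam1, phosphoglycerate mutase, rose by a log2 fold change of 0.27 (SE 0.067, limma adjusted p = 0.0033), with means of 4024 in IL-1β cultures and 3335 in naive cultures.

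Eno1, the main enolase, had means of 1716 ± 469 in IL-1β cultures and 1264 ± 276 in naive cultures (SD, n = 15 each; log2 fold change 0.42, SE 0.129, limma adjusted p = 0.033). Its count is uncertain because its near-identical copy Eno1b shares reads with it. The sum of both averaged 3503 ± 410 in IL-1β cultures and 2554 ± 517 in naive cultures. The call for Eno1 alone did not pass in 13 of 30 fits that each left out 1 library, where the adjusted p reached 0.0605, nor with libraries scaled to the same total or with limma-voom.

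Several enzymes of the same pathway did not pass the test. Gapdh, the best known housekeeping gene of the pathway, had a lowest, median and highest level of 1612, 2025 and 2609 in IL-1β cultures, against 1351, 1866 and 2347 in naive cultures (log2 fold change 0.19, 95% confidence interval 0.02 to 0.36, limma adjusted p = 0.22). Tpi1 was the nearest to the threshold of those not called (log2 fold change 0.30, adjusted p = 0.0783), and for Gpi1 the value was −0.16 (adjusted p = 0.25). Aldoa, with one of the highest counts of the 38 genes, averaged 5623 ± 418 in IL-1β cultures and 5321 ± 584 in naive cultures (SD, n = 15 each; limma adjusted p = 0.52). Aldoc, Eno2 and Ldhb, the isoforms typical of brain or of oxidative tissue, had log2 fold changes of 0.27, 0.15 and 0.02 with adjusted p values of 0.81, 0.71 and 0.96.

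Gapdh and Pgk1 are also 2 of the 4 genes, with Actb and Rpl32, that the study used as a housekeeping standard. Of these 4, Pgk1 rose, Actb fell (log2 fold change −0.26, SE 0.071, limma adjusted p = 0.0207; means of 52965 in IL-1β cultures and 63098 in naive cultures), and Gapdh and Rpl32 did not pass.

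Lactate and pyruvate leave or enter cells through monocarboxylate transporters. Slc16a1 (MCT1) rose, with a lowest, median and highest level of 126, 293 and 506 in IL-1β cultures, against 49.6, 152 and 338 in naive cultures (log2 fold change 1.08, SE 0.244, limma adjusted p = 0.0016). Slc16a3 (MCT4), the export form and a HIF target, was variable, with 0, 64.3 and 290 in IL-1β cultures, against 2.16, 33.1 and 71.2 in naive cultures, and did not pass (log2 fold change 0.82, 95% confidence interval −0.25 to 1.88). Pdk1, which closes the route from pyruvate into mitochondria, did not pass either (log2 fold change −0.87, 95% confidence interval −1.76 to 0.02).

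The further HIF targets did not move as one. Of the 11, P4ha2 and Vegfa rose and P4ha1 and Ppp1r3c fell. Vegfa, the vascular growth factor, had a lowest, median and highest level of 114, 198 and 406 in IL-1β cultures, against 31.8, 117.5 and 233 in naive cultures (log2 fold change 1.02, SE 0.237, limma adjusted p = 0.0021). The mitophagy receptors Bnip3 and Bnip3l, with log2 fold changes of 0.00 and −0.02, the mitochondrial protein gene Higd1a at 0.16, the stress gene Ndrg1 at 0.22 and the lipid droplet gene Hilpda at 0.13 did not pass. Car9, the carbonic anhydrase often used as a marker of hypoxic cells, was listed at 0 in 10 of 15 IL-1β libraries and in 10 of 15 naive libraries, and Ankrd37 in 9 of 15 IL-1β libraries and 13 of 15 naive libraries (values under 0.001 counted as 0).

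Ppp1r3c, which targets a phosphatase to glycogen and favours glycogen synthesis, had the strongest fall. It had 73.7, 22.0, 82.4, 0 and 0 normalized counts in IL-1β cultures on Matrigel, against 147, 193, 209, 198 and 210 in naive ones. On laminin it had 42.6, 13.5, 17.3, 38 and 0 in IL-1β cultures, against 55.8, 158, 59.9, 92.6 and 209 in naive ones. On PLO it had 0, 18.5, 0, 13.1 and 49.0 in IL-1β cultures, against 76.6, 110, 230, 154 and 131 in naive ones. Within each coating every IL-1β library lay below every naive one, and 5 of 15 IL-1β libraries were listed at 0. The log2 fold change was −3.43 (SE 0.525, limma adjusted p = 1.8e-06). On the scale used, log2 of the value plus 2, the change of so low a gene depends on the pseudocount, and it ran between −4.15 and −2.50 over the other settings tried.

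Genes around the pathway were read from lists of related routes, whose counts stand beside the 3.42% of all genes called as higher and 4.02% as lower. Of 13 glycogen genes tested, 1 rose and 3 fell: Pygb, a glycogen phosphorylase (log2 fold change −1.06, limma adjusted p = 2.3e-04), Ppp1r3d, another glycogen-targeting phosphatase subunit (−2.35, adjusted p = 0.0034), and Pygm, the muscle phosphorylase (−1.26, adjusted p = 0.0254), fell, while the branching enzyme gene Gbe1 rose (0.76, adjusted p = 0.0124). Pygb averaged 252 normalized counts in IL-1β cultures and 570 in naive cultures. With Ppp1r3c, genes for both making and breaking down glycogen were therefore among those that fell.

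Of 7 pentose phosphate genes, 2 rose and none fell: Taldo1 (log2 fold change 0.76, adjusted p = 0.0062; means of 4266 in IL-1β cultures and 2544 in naive cultures) and Pgls (0.25, adjusted p = 0.0488). Of 18 tricarboxylic acid cycle genes, none rose and 1 fell, the mitochondrial isocitrate dehydrogenase Idh2 (log2 fold change −0.90, adjusted p = 2.7e-05). Of 33 other HIF pathway genes, 7 rose and 2 fell. These included Mif (0.67, adjusted p = 2.0e-10), a cytokine, and Cited2 (0.93, adjusted p = 0.0012), a feedback inhibitor of HIF, which rose, and the collagen lysyl hydroxylase Plod2 (−0.84, adjusted p = 1.8e-06), which fell. Of 21 other glycolysis genes tested, 1 rose and 2 fell: Slc2a6, a sugar transporter of the lysosome known from macrophages, rose (2.14, adjusted p = 7.8e-04; means of 88.1 in IL-1β cultures and 20.7 in naive cultures), and Bsg, the partner protein of the lactate carriers (−0.32, adjusted p = 0.0092), and Pdp1 (−0.73, adjusted p = 0.028) fell.

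Markers of several cell types fell with the treatment too, to be read beside the 4.02% of all genes called as lower. Of the smooth muscle markers, 5 of 10 fell after IL-1β and none rose. Of the others tested, 3 of 11 enteric glia and 2 of 4 interstitial cell of Cajal markers fell. For fibroblasts 1 of 9 markers tested fell, for neurons 1 of 10 and for endothelium 1 of 8. The summed smooth muscle level averaged 9125 in IL-1β cultures and 20935 in naive cultures, that of enteric glia 16246 in IL-1β cultures and 21052 in naive cultures, and that of interstitial cells of Cajal 88.1 in IL-1β cultures and 188 in naive cultures. Myh11, a defining smooth muscle marker, stayed at or below 58.6 normalized counts in IL-1β cultures and 100.0 in naive cultures. The part of these cells in the changes above was not tested.

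The sequence just upstream of a gene offers a view of the genes that the values did not use. HIF binds a short core, ACGTG or GCGTG. The 250 bases before each listed start were searched on either strand, and a gene counted if any of its starts held the core. ACGTG occurred in 22 of the 35 genes with an entry in the RefSeq promoter set (62.9%; GRCm38.p6), beside 18.5% of all 27025 genes with an entry. GCGTG occurred in 24 of 35 (68.6%) beside 30.9%, and either core in 32 of 35 (91.4%) beside 41.5%. Counted by start, the shares were lower. ACGTG occurred at 25 of 50 starts of these genes, beside 16.6% of all 32851 starts. GCGTG occurred at 56.0% beside 28.2%, and either core at 80.0% beside 38.6%. Some genes, Vegfa and Hilpda among them, had a start without either core and counted through another start. Slc2a3, Bnip3l and Ndrg1 had no entry. The cores can overlap each other on opposite strands, many of these genes were picked as HIF targets in the first place, and a match is a description of letters, not a bound site. The 160 bases before the start are shown for 4 genes that rose, P4ha2 (chr11:54100764-54100923, plus strand), Hk2 (chr6:82774455-82774614, minus strand), Slc2a1 (chr4:119108585-119108744, plus strand) and Pgk1 (chrX:106186940-106187099, plus strand), and for 2 that fell, P4ha1 (chr10:59323136-59323295, plus strand) and Ppp1r3c (chr19:36736605-36736764, minus strand). The start is that of the promoter set. For 5 of the genes 0 of these bases lie inside the annotated gene, but for P4ha1 the gene begins further upstream, so that 99 of its 160 bases, with the core in capitals, lie inside the gene. Capitals mark ACGTG or its reverse complement CACGT.
P4ha2: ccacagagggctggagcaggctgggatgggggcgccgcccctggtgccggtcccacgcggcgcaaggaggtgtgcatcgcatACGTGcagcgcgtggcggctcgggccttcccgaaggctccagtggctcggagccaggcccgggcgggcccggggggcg
Hk2: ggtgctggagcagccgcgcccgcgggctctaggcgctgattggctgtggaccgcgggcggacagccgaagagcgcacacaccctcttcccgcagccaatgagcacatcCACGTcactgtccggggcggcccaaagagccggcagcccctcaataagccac
Slc2a1: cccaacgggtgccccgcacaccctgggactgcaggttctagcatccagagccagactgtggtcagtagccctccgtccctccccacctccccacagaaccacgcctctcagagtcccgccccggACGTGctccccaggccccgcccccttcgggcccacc
Pgk1: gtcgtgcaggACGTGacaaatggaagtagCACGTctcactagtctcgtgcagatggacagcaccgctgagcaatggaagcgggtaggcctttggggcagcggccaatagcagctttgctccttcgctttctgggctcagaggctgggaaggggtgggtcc
P4ha1: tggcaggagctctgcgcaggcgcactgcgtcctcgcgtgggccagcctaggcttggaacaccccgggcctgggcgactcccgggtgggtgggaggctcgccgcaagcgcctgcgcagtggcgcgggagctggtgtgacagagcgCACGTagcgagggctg
Ppp1r3c: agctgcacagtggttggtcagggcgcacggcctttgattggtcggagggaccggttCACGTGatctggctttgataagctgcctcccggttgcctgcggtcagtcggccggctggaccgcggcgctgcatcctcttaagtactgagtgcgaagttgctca
Each of the 6 stretches holds at least 1 ACGTG core, Pgk1 holds 2 on opposite strands, and in Ppp1r3c the capitals form the palindrome CACGTG, read as a core on both strands. The 6 genes were picked for display without a set rule, so they do not stand for all called genes. Of the called genes not shown, Pfkl and Eno1, which rose, and Pfkp, which fell, held GCGTG but no ACGTG in the bases searched. Among the genes shown, ones that rose and ones that fell both carried ACGTG.

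Taken coating by coating, with 5 libraries against 5, fewer genes passed. On Matrigel 4 of the 38 genes rose and 1 fell, beside 1.96% of all genes called, 1.14% as higher and 0.822% as lower. On laminin 8 rose and 1 fell, beside 1.88%, 1.15% as higher and 0.735% as lower. On PLO 3 rose and 2 fell, beside 2.34%, 1.2% as higher and 1.14% as lower. With a mean of at least 50 required, 7 of 34 were called on Matrigel, beside 4.38% of all genes at that level. The counts were 10 on laminin, beside 4.06%, and 5 on PLO, beside 4.92%. Hif1a and P4ha2 passed on all 3 coatings. The log2 fold change of Hif1a was 1.58 on Matrigel (limma adjusted p = 1.1e-07), 1.70 on laminin (adjusted p = 2.0e-08) and 1.48 on PLO (adjusted p = 6.8e-07). That of P4ha2 was 2.67 on Matrigel (adjusted p = 1.1e-07), 2.69 on laminin (adjusted p = 1.0e-07) and 1.86 on PLO (adjusted p = 1.3e-04).

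The remaining calls differed in name between coatings. Matrigel added Pfkl (log2 fold change 1.69, limma adjusted p = 0.0018), Pgk1 (0.54, adjusted p = 0.0339) and Ppp1r3c (−3.74, adjusted p = 0.0124). Laminin added Hk2 (2.42, adjusted p = 0.0072), Pkm (0.56, adjusted p = 0.0053), Pfkp (−1.05, adjusted p = 0.0113), Slc2a1 (1.33, adjusted p = 0.0243), Pfkfb3 (1.64, adjusted p = 0.0396), Pfkl (1.25, adjusted p = 0.0436) and Egln3 (1.73, adjusted p = 0.0486). PLO added Ppp1r3c (−3.87, adjusted p = 0.0071), Pkm (0.48, adjusted p = 0.0207) and P4ha1 (−0.80, adjusted p = 0.0444). Several of these calls rested on single libraries. On Matrigel the call was lost for Pgk1 without IL-1β replicate 1, 2 or 3 or naive replicate 1, 2 or 4 (adjusted p up to 0.148) and for Ppp1r3c without IL-1β replicate 4 or 5 (up to 0.083). On laminin it was lost for Pfkl without IL-1β replicate 1 or 4 or naive replicate 1, 3 or 4 (up to 0.257), for Slc2a1 without IL-1β replicate 3 or 5 or naive replicate 2 or 5 (up to 0.124) and for Pkm without naive replicate 2 (0.0528). Hk2 kept its laminin call in every such fit, with log2 fold changes of 1.65 to 2.74. Its value in laminin naive replicate 2 was 6.25, against 57.8 to 168 in the other laminin naive cultures. Pfkfb3 kept its laminin call in 2 of the 10 fits that left out a laminin library (without IL-1β replicate 2 or naive replicate 3), and Egln3 in 3 (without IL-1β replicate 2 or naive replicate 1 or 5), with adjusted p up to 0.154 and 0.213 in the others. On PLO it was lost for Pkm without IL-1β replicate 3 or 5 or naive replicate 1 or 3 (up to 0.0802) and for P4ha1 without IL-1β replicate 2, 3 or 4 or naive replicate 2, 4 or 5 (up to 0.202). Other settings ended further calls. With a pseudocount of 0.5, those of Ppp1r3c on Matrigel (limma adjusted p = 0.0543) and Egln3 on laminin (0.0574) were lost. Scaled to the same total, the laminin calls of Pfkl (0.0613), Pfkfb3 (0.0527) and Egln3 (0.0567) were lost. Fitted on the compared groups alone, the laminin call of Hk2 (adjusted p = 0.247) and of Egln3 (0.0697) and the Matrigel call of Pgk1 (0.0516) were lost. Scaled to Actb and Rpl32, those of Pfkp on laminin (0.103) and P4ha1 on PLO (0.321) were lost, and with limma-voom those of Pfkl, Slc2a1, Pfkfb3 and Egln3 on laminin (0.0851 to 0.17). Without laminin naive replicate 2 the laminin count was 5 genes in place of 9, and without PLO IL-1β replicate 3 the PLO count was 3 in place of 5.

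**Figure D3:**
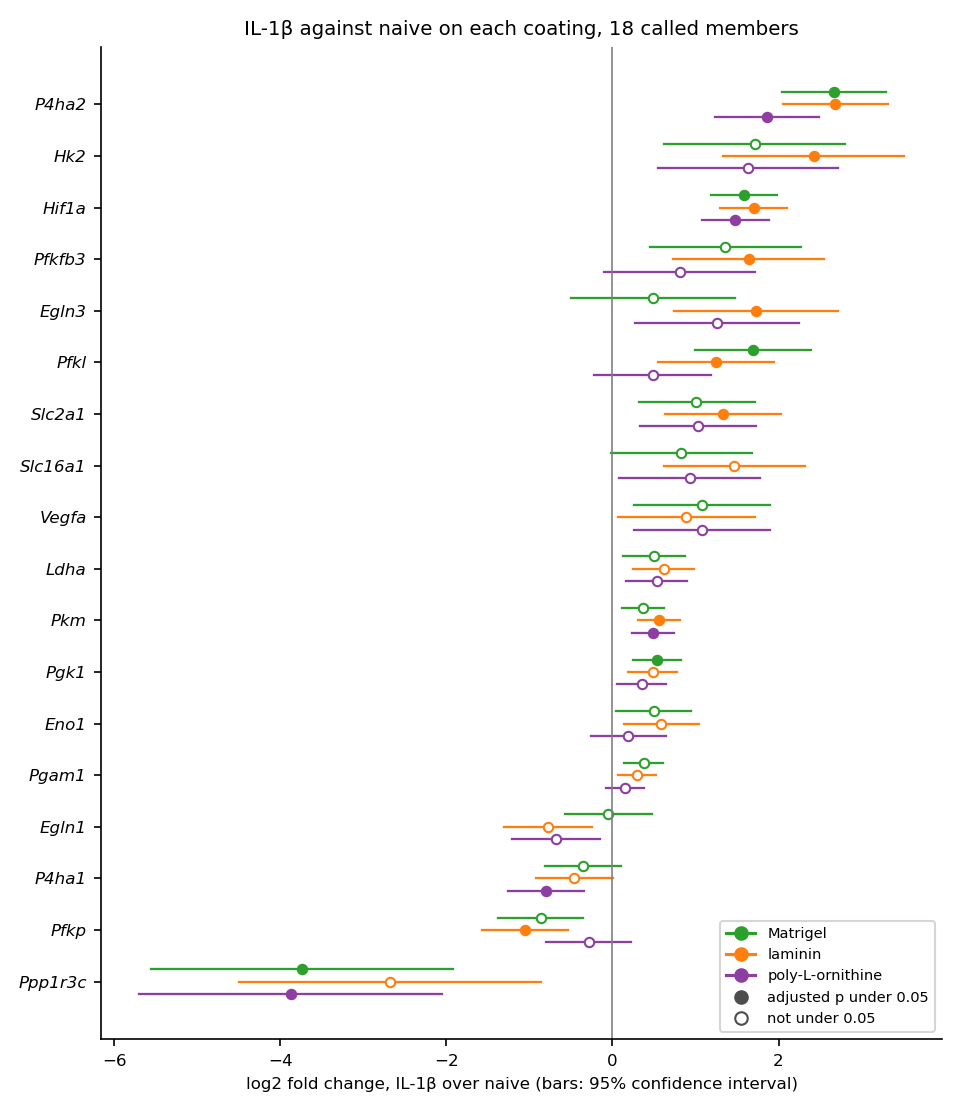
Log2 fold change of IL-1β over naive on each coating for the 18 genes called over the 3 coatings, with 95% confidence intervals (5 libraries against 5 per coating; filled points have an adjusted p under 0.05). For Hif1a the 3 values lie between 1.48 and 1.70, and for Pfkl they run from 0.48 on PLO to 1.69 on Matrigel with overlapping intervals.

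These differences in name were not differences in response that passed a test. For none of the 38 genes did the IL-1β response differ between coatings (limma, difference of differences, adjusted p under 0.05), and 0% of all genes passed for any of the 3 pairs of coatings. An unadjusted p under 0.05 was found for 2 of the 38 genes between Matrigel and PLO, 2 between laminin and PLO and 1 between laminin and Matrigel, near the 3.9%, 3.81% and 3.22% of all genes, and limma-voom also called none. The lowest p was that of Ldhb for Matrigel minus PLO (difference of log2 fold changes −1.14, 95% confidence interval −2.02 to −0.26, limma adjusted p = 0.96). Next came Pfkl in the same pair (1.21, 95% confidence interval 0.22 to 2.20, adjusted p = 0.96). For P4ha2 the interval of the same difference was −0.07 to 1.70. The intervals are wide, so the absence of a call does not show that the coatings gave the same response.

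The coatings themselves gave no call among the 38 genes. Between naive cultures on any 2 coatings, or on Matrigel and laminin together against PLO, limma called 0 of 38 genes, and at an unadjusted p under 0.05 there were 2 for laminin against Matrigel (Egln1 and Ldhb), beside 3.63% of all genes, and none elsewhere. Of all genes, 0.00483% were called for Matrigel against PLO, in the lower direction, and 0% in the other naive comparisons. After IL-1β, 0 of 38 were called as well. Matrigel and laminin together against PLO had 0.305% of all genes called, 0.222% as higher and 0.0822% as lower, Matrigel against PLO had 0.135%, 0.0967% as higher and 0.0387% as lower, laminin against PLO had 0.0532%, 0.0387% as higher and 0.0145% as lower, and laminin against Matrigel had 0%. At an unadjusted p under 0.05 there were 6 of 38 genes in each of the first 3 comparisons, beside 7.56%, 7.1% and 6.97% of all genes, and 1 in the last, beside 3.97%. limma-voom also called none.

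The values nearest to the threshold after IL-1β concerned HIF targets. Hilpda, which encodes a lipid droplet protein, had 217, 107, 286, 310 and 419 normalized counts on Matrigel and 220, 214, 349, 313 and 258 on laminin, against 437, 230, 577, 485 and 449 on PLO (log2 fold change −0.71, 95% confidence interval −1.22 to −0.20, limma adjusted p = 0.34). Ndrg1 averaged 1450 on Matrigel and laminin and 1896 on PLO (−0.40, adjusted p = 0.36), P4ha1 627 on Matrigel and laminin and 435 on PLO (0.53, adjusted p = 0.37), and Higd1a 988 on Matrigel and laminin and 727 on PLO (0.43, adjusted p = 0.39). Egln3 averaged 95.4 on Matrigel and 232 on PLO (−1.32, adjusted p = 0.47). The Hilpda libraries of the coatings overlapped, and none of these genes passed.

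RiboTag RNA showed a different set of isoforms from naive cultures. Of the 38 genes, 15 were higher and 10 lower in RiboTag libraries (limma adjusted p under 0.05), beside 45.5% of all 20320 genes called, 31.3% as higher and 14.1% as lower. The median log2 fold change of all genes was 0.32, so values near it are close to the middle of the table, and the median of the 38 genes was 0.03. Groups did not overlap for 11 genes with RiboTag higher, beside 12.2% of all genes, and for 5 with RiboTag lower, beside 5.93%. With a mean of at least 50 required, 14 of 34 were higher and 12 lower, beside 57.8% of 10856 genes called. Scaled to Actb and Rpl32, whose own log2 fold changes were −1.05 and −2.52, 28 of the 38 genes were higher and 1 lower, with 62.7% of all genes called, and the median of all genes was 1.28. The direction of a single gene is therefore to be read beside the median of all genes. Values relative to that median are given below for some of the genes.

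**Figure D4:**
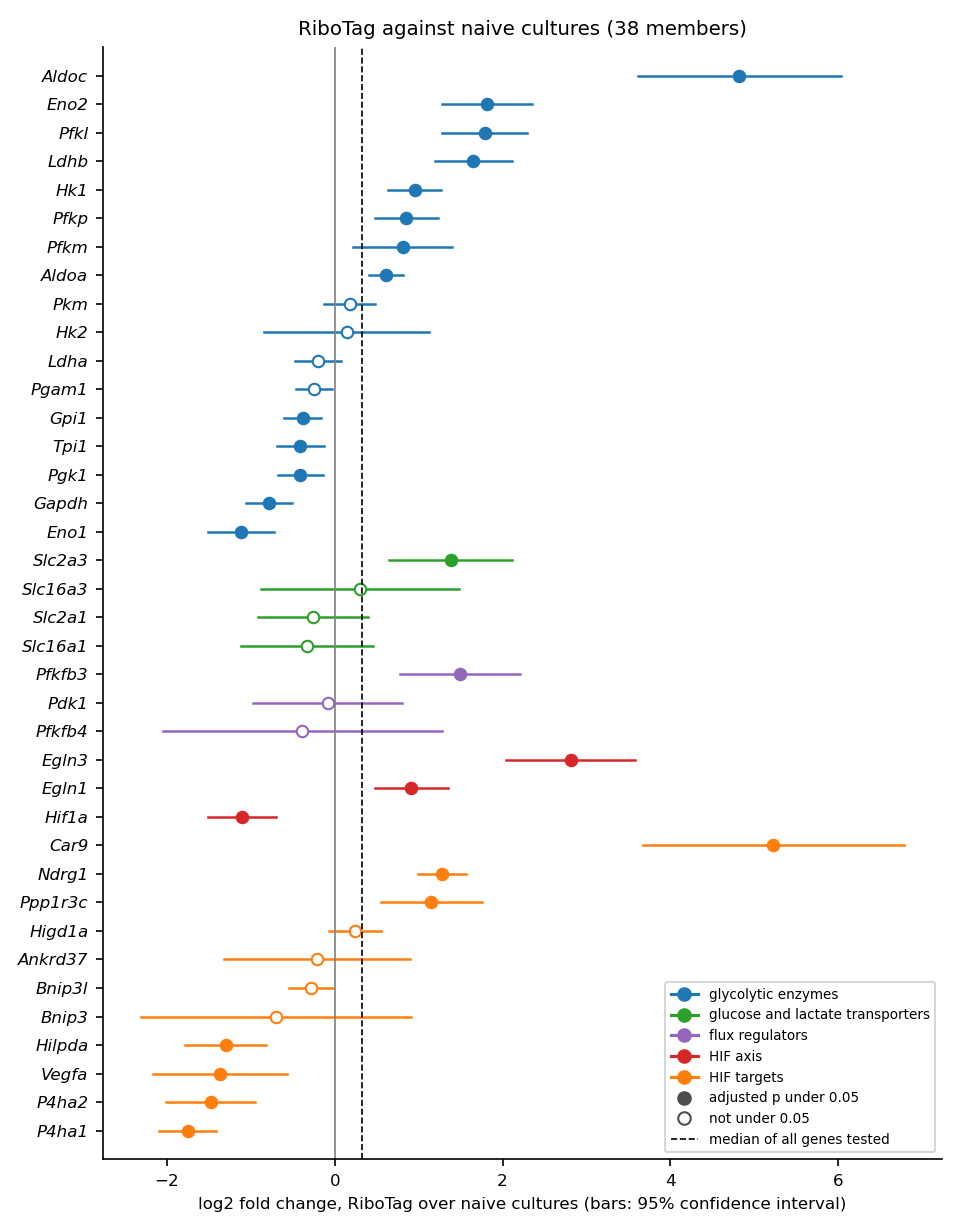
Log2 fold change of each of the 38 genes, RiboTag over naive cultures (5 libraries against 15), with 95% confidence intervals; filled points have an adjusted p under 0.05 and the dashed line is the median of all genes tested, 0.32. Car9, Aldoc and Egln3 lie farthest to the right at 5.22, 4.82 and 2.81, and P4ha1 and P4ha2 farthest to the left at −1.75 and −1.48.

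Isoforms known from brain or oxidative tissue were higher in RiboTag libraries. Aldoc, the aldolase typical of astrocytes, had 1064, 760, 509, 806 and 1093 normalized counts in RiboTag libraries, against a lowest, median and highest of 0, 30.6 and 94.9 in naive cultures (log2 fold change 4.82, SE 0.595, limma adjusted p = 2.3e-08). Eno2, neuron-specific enolase, had 1535, 1036, 667, 928 and 1075 in RiboTag libraries, against 148, 315 and 480 in naive cultures (log2 fold change 1.82, SE 0.263, limma adjusted p = 7.1e-07). Ldhb, the lactate dehydrogenase subunit that favours pyruvate, had 956, 926, 694, 1083 and 1024 in RiboTag libraries, against 133, 334 and 482 in naive cultures (log2 fold change 1.65, SE 0.225, limma adjusted p = 1.7e-07). For all 3 genes every RiboTag library lay above every naive library.

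Of the partner isoforms, Ldha and Eno1 were not higher, while Aldoa was. Ldha did not pass (log2 fold change −0.20, 95% confidence interval −0.48 to 0.08, adjusted p = 0.25). Eno1 had 634, 780, 312, 449 and 847 in RiboTag libraries, against 705, 1276 and 1781 in naive cultures (log2 fold change −1.12, SE 0.191, limma adjusted p = 1.1e-05; 0.07 when scaled to Actb and Rpl32), and the sum of Eno1 and Eno1b averaged 1948 ± 444 in RiboTag libraries (SD, n = 5) and 2554 ± 517 in naive cultures (SD, n = 15). The ratio of Ldha to Ldhb was 1.25 to 1.87 in RiboTag libraries and 2.71 to 13.6 in naive libraries, and that of Eno2 to Eno1 was 1.27 to 2.42 in RiboTag libraries and 0.106 to 0.540 in naive libraries. Neither ratio overlapped, and neither depends on how libraries are scaled. With the sum of Eno1 and Eno1b in place of Eno1, the ratio was 0.423 to 0.573 in RiboTag libraries and 0.0448 to 0.273 in naive libraries, lower but again without overlap. Aldoa, the ubiquitous aldolase, had 11092, 7054, 7297, 7288 and 8227 in RiboTag libraries, against 4152, 5371 and 6381 in naive cultures (log2 fold change 0.61, SE 0.098, limma adjusted p = 3.2e-06). Its counts were far above those of Aldoc in both. Relative to the median of all genes the Aldoa value was 0.285.

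**Figure D5:**
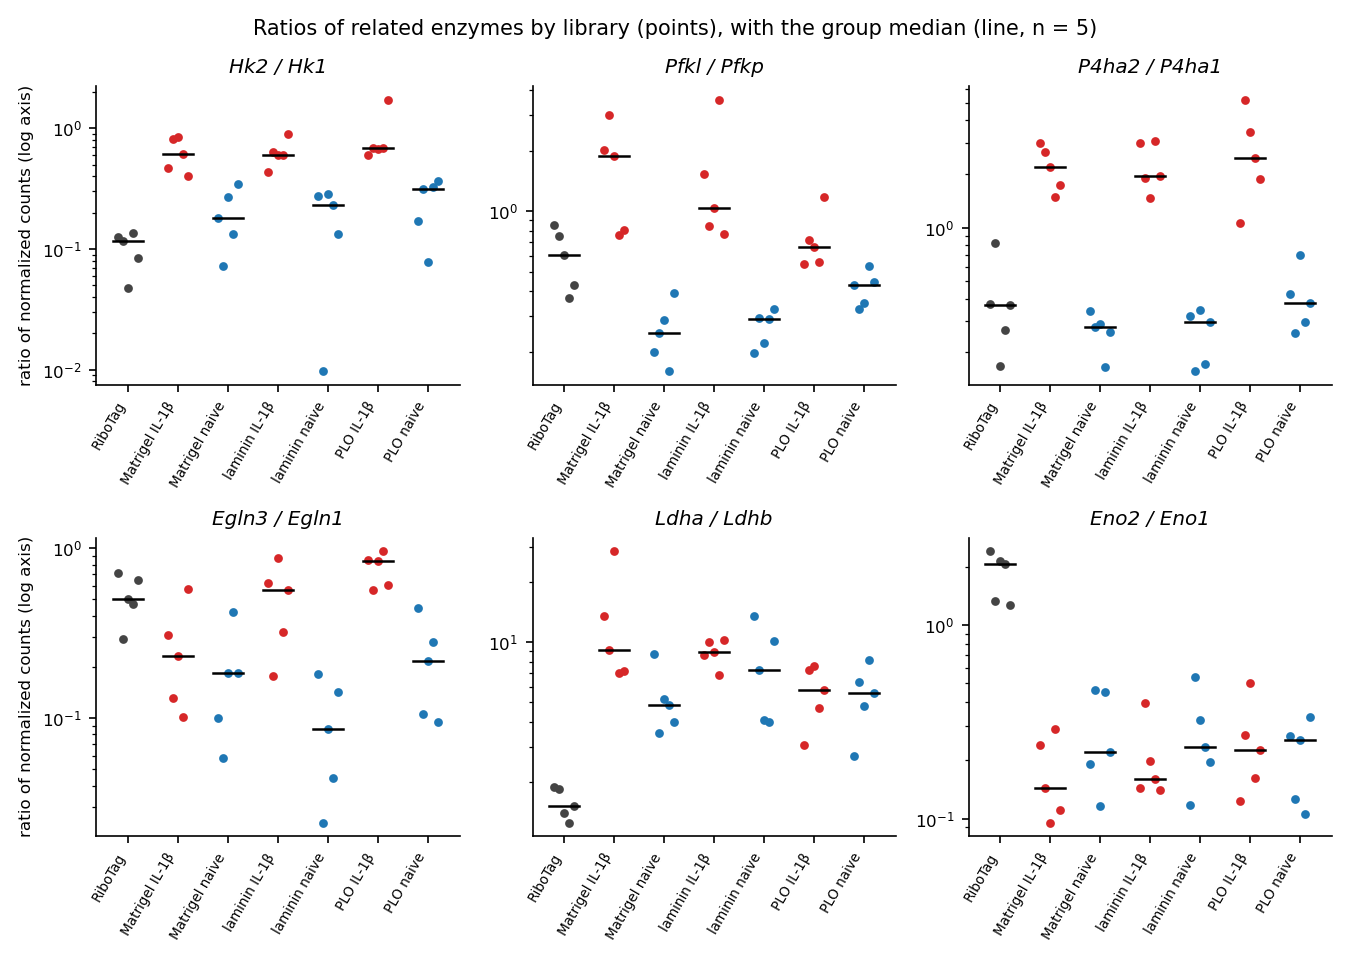
Ratio of normalized counts of related enzymes in each library on a log axis (points: grey RiboTag, red IL-1β, blue naive; line, group median of 5). The Hk2 to Hk1, Pfkl to Pfkp and P4ha2 to P4ha1 ratios separate red from blue points, whereas the Ldha to Ldhb and Eno2 to Eno1 ratios separate the grey points from all cultures.

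At the top of the pathway, Hk1 had 1028, 1182, 1047, 1156 and 1503 in RiboTag libraries, against 434, 584 and 879 in naive cultures (log2 fold change 0.95, SE 0.155, limma adjusted p = 4.1e-06), while Hk2 did not pass (0.14, 95% confidence interval −0.84 to 1.13). All 3 phosphofructokinase genes were higher in RiboTag libraries. Pfkl had 841, 586, 506, 362 and 472 in RiboTag libraries, against 85.9, 163 and 251 in naive cultures (log2 fold change 1.79, SE 0.249, limma adjusted p = 2.6e-07). Pfkp averaged 937 in RiboTag libraries and 533 in naive cultures (0.85, adjusted p = 2.5e-04), and Pfkm 280 in RiboTag libraries and 161 in naive cultures (0.81, adjusted p = 0.0215). Relative to the median of all genes the values were 1.46 for Pfkl, 0.53 for Pfkp and 0.48 for Pfkm. The Pfkm call did not hold without RiboTag replicate 2, 4 or 5, where the adjusted p reached 0.0785, nor with quantile normalization (0.50, adjusted p = 0.168) or against naive laminin cultures alone (0.57, adjusted p = 0.212). Pfkfb3 (log2 fold change 1.49, adjusted p = 7.0e-04) and Slc2a3 (1.38, adjusted p = 0.0019) were also higher, and Slc2a1 did not pass (−0.26, 95% confidence interval −0.92 to 0.40).

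Gapdh, Pgk1, Tpi1 and Gpi1 were lower in RiboTag libraries under the authors' scaling and changed sign when libraries were scaled to Actb and Rpl32. Gapdh had 1315, 1175, 792, 833 and 1295 in RiboTag libraries, against a lowest, median and highest of 1351, 1866 and 2347 in naive cultures (log2 fold change −0.78, SE 0.137, limma adjusted p = 1.2e-05). For Pgk1 the log2 fold change was −0.41 (adjusted p = 0.01), for Tpi1 −0.41 (adjusted p = 0.0153) and for Gpi1 −0.38 (adjusted p = 0.0038). Without RiboTag replicate 3 the adjusted p was 0.0536 for Pgk1 and 0.0957 for Tpi1, and both calls were also lost with limma-voom (0.0507 and 0.0737) and against naive PLO cultures alone (0.0635 for Pgk1, 0.137 for Tpi1). The Pgk1 call was further lost against naive laminin cultures alone (0.0557). Relative to the median of all genes the values were −1.11 for Gapdh, −0.74 for Pgk1, −0.73 for Tpi1 and −0.70 for Gpi1. Scaled to Actb and Rpl32 the log2 fold changes were 0.41 for Gapdh, 0.78 for Pgk1, 0.79 for Tpi1 and 0.81 for Gpi1, each still below the median of all genes at that scaling. With Actb and Rpl32, all 4 housekeeping genes of the study were lower in RiboTag libraries than in naive cultures under the authors' scaling.

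Within the HIF axis, both listed hydroxylase genes were higher. Hif1a had 130, 256, 143, 203 and 180 in RiboTag libraries, against 288, 385 and 555 in naive cultures (log2 fold change −1.10, SE 0.201, limma adjusted p = 2.3e-05), without overlap, but 0.09 when scaled to Actb and Rpl32. Egln3 had 692, 374, 526, 452 and 412 in RiboTag libraries, against 17.9, 69.1 and 163 in naive cultures (log2 fold change 2.81, SE 0.378, limma adjusted p = 1.3e-07), and Egln1 averaged 982 in RiboTag libraries and 538 in naive cultures (0.91, adjusted p = 5.8e-04). Against naive laminin cultures alone the Egln1 value was 0.53 and did not pass (adjusted p = 0.109). The RiboTag and IL-1β comparisons share the naive cultures, so their values are not independent of each other.

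HIF targets fell on both sides. P4ha1 had 247, 164, 284, 278 and 195 in RiboTag libraries, against 543, 812 and 979 in naive cultures (log2 fold change −1.75, SE 0.168, limma adjusted p = 8.5e-11), and P4ha2 had 92.6, 134, 47.5, 73.9 and 72.0 in RiboTag libraries, against 154, 231 and 382 in naive cultures (−1.48, SE 0.261, limma adjusted p = 1.5e-05). Both collagen hydroxylases were thus below every naive culture. Vegfa (−1.37, adjusted p = 0.0043) and Hilpda (−1.30, adjusted p = 2.7e-05) were lower too, and the calls for P4ha2, Vegfa and Hilpda were lost with scaling to Actb and Rpl32. Relative to the median of all genes at that scaling, the values were −1.59 for P4ha2, −1.5 for Vegfa and −1.40 for Hilpda. Ndrg1 had 2778, 3344, 2567, 3476 and 4393 in RiboTag libraries, against 1069, 1256 and 2039 in naive cultures (log2 fold change 1.28, SE 0.139, limma adjusted p = 1.5e-09). Car9 had 68.3, 131, 172, 122 and 235 in RiboTag libraries, against 0, 0 and 43.9 in naive cultures (log2 fold change 5.22, SE 0.767, limma adjusted p = 6.8e-07), a size that depends on the pseudocount since most cultures were listed at 0. Ppp1r3c averaged 315 in RiboTag libraries and 149 in naive cultures (1.15, adjusted p = 0.0016), but the call was lost against naive Matrigel cultures alone (0.68, adjusted p = 0.146), as was that of Vegfa (adjusted p = 0.0584). Bnip3, Bnip3l, Higd1a and Ankrd37 did not pass.

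For related routes, counts stand beside the 31.3% of all genes called as higher and 14.1% as lower. Of 26 other glycolysis genes tested, 12 were higher and 3 lower in RiboTag libraries, led by Slc2a4, the insulin-regulated glucose transporter of muscle and fat, with means of 1136 in RiboTag libraries and 2.66 in naive cultures, and by Slc16a7 (MCT2), with 373 in RiboTag libraries and 7.67 in naive cultures. Of 13 glycogen genes, 5 were higher and 3 lower, among them Pygb with 3357 in RiboTag libraries and 570 in naive cultures (log2 fold change 2.71, adjusted p = 2.4e-07), Pygm with 472 in RiboTag libraries and 102 in naive cultures (2.30, adjusted p = 1.3e-06), and Ppp1ca, a phosphatase subunit, which was lower (−1.17, adjusted p = 2.3e-10). Of 7 pentose phosphate genes, 4 were lower and none higher: Pgls (−0.98), Pgd (−1.99), G6pdx (−1.07) and Taldo1 (−1.26), with adjusted p values between 5.8e-08 and 1.4e-04. Of 33 other HIF pathway genes, 8 were higher and 12 lower, led by the collagen-modifying genes Lox (−5.00, adjusted p = 4.9e-13), Plod2 (−2.22, adjusted p = 1.2e-12) and P4hb (−1.48, adjusted p = 2.4e-12). Of 18 tricarboxylic acid cycle genes, 4 were higher, such as Ogdh (0.72, adjusted p = 1.6e-04), and 4 lower, such as Sdhb (−0.84, adjusted p = 6.0e-07), together a share close to the 45.5% of all genes.

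Markers of other cell types, not only those of the muscle layer, moved with this comparison. All 10 smooth muscle markers, all 5 of interstitial cells of Cajal, 7 of 10 macrophage, all 8 epithelial and all 5 erythroid markers were higher in RiboTag libraries, as were 8 of 11 enteric glia and 8 of 10 neuron markers (the other 2 were lower), while 6 of 9 fibroblast markers tested were lower and none higher. Myh11 had at least 110446 normalized counts in each RiboTag library and at most 100.0 in any naive culture, and Sox10, the gene that drives the tag, had 13097 to 20215 in RiboTag libraries and 4923 to 12590 in naive cultures. Erythroid markers summed to 1713 to 2995 in RiboTag libraries and 0 to 48.2 in naive cultures. Several of the genes above, such as Slc2a4, Pygm and Pfkm, are also expressed in muscle. The part of these cells in the differences was not tested.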

How the data were processed

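Libraries were made by the authors with a QuantSeq 3' kit, sequenced on a NovaSeq instrument, trimmed with cutadapt, aligned to mm10 with STAR and quantified in Partek Flow against an annotation model, of which no release is given in the sources used here. Values as deposited, used here as a signal, are counts that the authors normalized by size factors; they are fractional, and raw depth is therefore unknown. No other columns were present. Values were read for all 22180 genes and 35 libraries. Groups were taken from the labels, which call the replicates biological.

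log2(value + 2) was fitted with limma 3.58.1 (R 4.3.3; trend and robust empirical Bayes). As in the noise filter of the study, a gene entered a fit only if it exceeded 15 in at least 1 of its libraries. The 6 culture groups formed 1 fit (30 libraries, 20687 genes) and RiboTag with the naive cultures another (20 libraries, 20320 genes). Adjustment followed Benjamini-Hochberg, taking every gene of the fit, and 0.05 was the threshold. Fold changes on this scale understate changes of low genes. The fit was tested on simulated data first. Ratios are quotients of normalized counts in 1 library and carry no test.

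The genes and lists were chosen with earlier results of these data known. All 38 genes could be named; values by library were given for up to 12 genes with the lowest adjusted p per IL-1β and RiboTag comparison and up to 6 per coating comparison, for Gapdh, Pgk1, Hif1a and the isoform pairs, and up to 4 called genes were named per other list. Alternatives were other pseudocounts, filters, scalings, limma-voom, a replicate block, fits of the compared groups alone and leaving out each library. Scaling culture comparisons to Actb and Rpl32 was added after seeing the data. Gene positions and promoters came from RefSeq tables of GRCm38.p6, the assembly that mm10 represents; 38 of 38 genes matched by symbol, 35 with a promoter. Python 3.11.15 and matplotlib 3.10.9 were used for figures.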

Additional observations from a re-analysis of the deposited data

Results flagged for a closer look

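In groups of 5 libraries, 264 gene and group combinations were checked for a library far from the other 4 (gap over range above 0.71). Chance marks about 1 in 20, or 13.2 of 264; 23 were marked. Among glycolytic enzymes these were Hk2 in RiboTag replicate 3 (49.9 normalized counts, the others 126 to 156), Pfkm in laminin IL-1β replicate 4 (216) and laminin naive replicate 5 (302), Aldoa in laminin IL-1β replicate 3 (6292) and Matrigel naive replicate 2 (4463), Tpi1 in PLO naive replicate 5 (1076), Gapdh in PLO naive replicate 2 (2347) and Ldhb in Matrigel IL-1β replicate 3 (137, the others 254 to 288). The last of these also had the highest Ldha to Ldhb ratio of all libraries, 28.6.

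Among regulators and HIF targets they were Pfkfb4 in Matrigel IL-1β replicate 1 (99.0), Vegfa in RiboTag replicate 1 (65.8, the others 33.3 to 38.8) and Matrigel IL-1β replicate 2 (369), Ppp1r3c in Matrigel naive replicate 1 (147), Ndrg1 in laminin IL-1β replicate 2 (2147) and laminin naive replicate 3 (2039), and Hilpda in laminin naive replicate 3 (383) and PLO naive replicate 2 (436). Laminin naive replicate 3 thus stood highest in its group for Ndrg1, Hilpda and Car9.

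The other 7 concerned genes listed at 0 in most libraries of the group: Car9 in Matrigel IL-1β replicate 3 (16.5), laminin IL-1β replicate 1 (14.9), Matrigel naive replicate 4 (5.40) and laminin naive replicate 3 (11.1), and Ankrd37 in RiboTag replicate 4 (2.71), Matrigel naive replicate 5 (23.0) and laminin naive replicate 4 (16.9).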

How the results depend on the processing

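Over the 3 coatings, 17 to 21 of the 38 genes were called after IL-1β under the 9 other settings and 16 to 19 when 1 library was left out. For RiboTag the ranges were 22 to 29 under its other settings and 23 to 26 with 1 library left out. By coating, leaving out 1 library gave 4 to 7 genes on Matrigel, 5 to 10 on laminin and 3 to 5 on PLO. On laminin limma-voom called 5; on PLO a fit of its own 2 groups called 10; scaled to Actb and Rpl32, 9 were called on Matrigel and 9 on PLO. That scaling reversed 6 RiboTag values: Gpi1 to 0.81, Tpi1 to 0.79, Gapdh to 0.41, Pgk1 to 0.78, Eno1 to 0.074 and Hif1a to 0.085, all below the median of all genes there, 1.28. The cause was not tested. Of single genes called, 66 of 1230 values lost their call when 1 library was left out and 34 of 651 under other settings, with no change of sign among these. Eno1 after IL-1β lost its call without Matrigel IL-1β replicate 2 or 3, laminin IL-1β replicate 1, 4 or 5, PLO IL-1β replicate 1 or 4, Matrigel naive replicate 2 or 4, laminin naive replicate 2, or PLO naive replicate 2, 3 or 5 (log2 fold change 0.36 to 0.48 over all 30 such fits).

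Replicate numbers did not pair libraries: the deviations of same-numbered libraries of different culture groups correlated at −0.007 on average (−0.075 to 0.057 over 75 pairs of libraries). This check covers shared numbers only. In each culture group 1 library stood lowest for the sum of mesothelium markers, under mixed replicate numbers. The sum was 69.8 in Matrigel naive replicate 2, 153 in laminin naive replicate 5 and 250 in PLO naive replicate 3. After IL-1β it was 87.9 in Matrigel replicate 1, 13.7 in laminin replicate 4 and 113 in PLO replicate 3. Every other culture library had at least 469. Whether cultures of different groups came from the same animal under other numbers was not tested. With the replicate number as a block, 18 genes were called over the 3 coatings, 5 on Matrigel, 8 on laminin, 4 on PLO and 25 for RiboTag. A block by replicate number cannot allow for animals shared under other numbers. The block changed the calls of Pfkl on laminin and P4ha1 on PLO. No count of genes between coatings moved from 0 under any setting. Precision is limited for genes with many libraries at 0 (Car9, Ankrd37, Ppp1r3c).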
